A study of Homo sapiens with 12 samples.

Results

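CHRM1, CACNA1G, BTN1A1 and CETP are 4 of the 58735 genes in the count table of a human K562 experiment. They were chosen by name, as genes of nerve, mammary gland or liver whose reads were nearly absent when cells received nilotinib before hemin. That choice rested on the hemin libraries with and without nilotinib, so this comparison, and each comparison that shares those libraries, is given below as a description without a test. K562 is an erythroleukemia line that carries the BCR-ABL1 fusion and makes more hemoglobin when given hemin. Nilotinib is a tyrosine kinase inhibitor directed at ABL, and the study used it in a test of erythroid differentiation. RNA was sequenced from 12 libraries in 4 groups of 3 biological replicates. Mock DMSO cells received the DMSO vehicle, mock nilotinib cells received 0.1 µM nilotinib, and both were collected at hour 0 of hemin. Hemin DMSO and hemin nilotinib cells had the same pretreatments followed by 50 µM hemin for 24 h. The hemin libraries therefore also come from 24 h more of culture, and hemin cannot be told apart from that time. All cells were of 1 line, and fewer cells that express a gene cannot be told apart in bulk RNA from less RNA per cell.

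The 4 genes have known roles outside the erythroid lineage. CHRM1 encodes the M1 muscarinic acetylcholine receptor of brain neurons, which signals through Gq, phospholipase C beta and inositol trisphosphate receptors. CACNA1G encodes Cav3.1, the pore of a low-voltage-activated T-type calcium channel of neurons and pacemaker cells. BTN1A1 encodes butyrophilin, a membrane protein of the secreting mammary epithelium that is packed around milk fat globules. CETP encodes the cholesteryl ester transfer protein, a plasma protein made in liver and fat that exchanges cholesteryl esters and triglycerides between lipoproteins, and its gene is a target of the liver X receptors.

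The genes lie on 4 chromosomes of GRCh38. CHRM1 (ENSG00000168539) is at chr11:62908679-62921807 on the minus strand, CACNA1G (ENSG00000006283) at chr17:50561068-50627474 on the plus strand, BTN1A1 (ENSG00000124557) at chr6:26501221-26510422 on the plus strand and CETP (ENSG00000087237) at chr16:56961850-56983845 on the plus strand. In GENCODE 29 an antisense gene, AP000438.1, covers 9.6% of the 3250 exon bases of CHRM1, and another, AC004590.1, covers 3.2% of the 9709 exon bases of CACNA1G. No annotated exon of another gene overlapped the exons of BTN1A1 or CETP. No 150-base word of the BTN1A1 or CETP transcripts occurred in the transcript of another gene, and for CHRM1 and CACNA1G only those same antisense genes shared words. The counting was not stated to use strand.

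Because the 4 genes moved together, the letters before their start sites were searched for short motifs. The RefSeq promoter table (GRCh38.p14) matched 3 of the 4 genes, CHRM1, BTN1A1 and CETP. The 250 bases before the CHRM1 start at base 62921363 lie inside its first GENCODE exon and are not printed. For the others the bases outside annotated exons are shown 5′ to 3′ on the plus strand, with a match to the GATA motif AGATAA in capitals.
BTN1A1, chr6:26500053-26500302: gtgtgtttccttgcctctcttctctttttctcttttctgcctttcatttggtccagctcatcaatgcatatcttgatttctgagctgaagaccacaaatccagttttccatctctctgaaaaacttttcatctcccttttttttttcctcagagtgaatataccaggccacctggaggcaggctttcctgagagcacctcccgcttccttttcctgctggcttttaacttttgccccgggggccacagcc
CETP, chr16:56961700-56961849: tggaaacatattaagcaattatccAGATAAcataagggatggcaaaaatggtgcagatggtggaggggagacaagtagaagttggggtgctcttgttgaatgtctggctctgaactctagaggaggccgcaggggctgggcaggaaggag

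Among the 250-base windows of CHRM1, BTN1A1 and CETP, the CETP window alone held AGATAA on either strand. The match lies 226 bases before the RefSeq start at base 56961950 and 126 bases before the gene start of the deposited table at base 56961850. The window of BTN1A1 ends at its RefSeq start at base 26500303, which is 918 bases upstream of the start in the deposited table, so the bases next to that later start were not searched. The same motif was in 9.2% of the 35116 promoters of the table. On either strand none of the 3 windows held the cyclic AMP response element TGACGTCA, which 1.6% of promoters held. None held the ATF4 composite site TGATGNAA, found in 3.1%, the AP-1 site TGANTCA, found in 6.6%, or the STAT site TTCNNNGAA, found in 6.6%. The antioxidant response element TGACNNNGC, in 10.9% of promoters, and the core promoter box TATAAA, in 10.7%, were not in these windows. The heat-shock element, searched as GAANNTTC and as TTCNNGAA and found in 11.6%, was not in them. The windows held 7 CpG in CHRM1, 2 in BTN1A1 and 6 in CETP, against a median of 11 over all promoters of the table. The 3 windows therefore held none of these motifs in common. The gene start of CHRM1 in the deposited table lies 444 bases upstream of its RefSeq start, so the bases before it were not searched. CACNA1G had no window.

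Each library held 33457078 to 50506990 counted reads, and 3 counts corresponded to 0.054 to 0.0957 CPM (read counts scaled to library size, with TMM factors). Replicates of a group correlated at 0.969 or higher over genes. After the filter on low counts 20821 genes were tested, and all 4 genes were kept through their hemin DMSO counts. Erythroid markers were called higher in hemin nilotinib than in hemin DMSO for 10 of 10 listed genes, against 32.4% of all tested genes. In hemin nilotinib replicate 1 stood apart for TFRC, with 98960 counts against 18902 and 18336 in replicates 2 and 3. HBA1 had 143780 counts in replicate 1 against 53358 and 48428. Hepatocyte markers other than TF stood apart in 1 library, with 180 counts in hemin nilotinib replicate 3 against 6 and 11 in replicates 1 and 2.

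All 4 genes were close to silent in 3 of the 4 groups and clearly present in hemin DMSO. The label under which they were grouped describes genes expressed in K562, and the mock DMSO libraries went against it, since no library there held more than 10 counts of any of them. The loss with nilotinib was measured against a level that only the hemin DMSO group had. By the deposited FPKM, which allows for gene length, the 4 genes in hemin DMSO stood above 54.4% to 56.6% of the 19951 protein-coding genes. In the other 3 groups they stood above 17.6% to 31.2%.

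CHRM1, the muscarinic receptor gene, had 3, 0 and 5 counts in mock DMSO, 1, 0 and 0 in mock nilotinib, 45, 261 and 355 in hemin DMSO, and 0, 0 and 1 in hemin nilotinib. The hemin DMSO libraries were all above the other 9, and replicate 1 was far below replicates 2 and 3. Mean CHRM1 level was 6.24 ± 4.22 CPM (SD, n = 3) with hemin alone. With nilotinib before hemin it was 0.00779 ± 0.0135 CPM (SD, n = 3), from 1 read in all. The ratio of the summed, depth-scaled counts of hemin DMSO to hemin nilotinib was 729, with an exact 95% interval of 130 to 28800 that covers counting error only. The fitted log2 fold change was −9.04 (SE 0.97), the 3rd lowest of 20821 genes.

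CACNA1G, the calcium channel gene, had 10, 8 and 6 counts in mock DMSO, 4, 2 and 1 in mock nilotinib, 451, 602 and 714 in hemin DMSO, and 0, 2 and 2 in hemin nilotinib. It had the most even hemin DMSO replicates of the 4 genes and the most reads, and has the longest exons. The hemin DMSO mean was 17.05 ± 2.85 CPM and the hemin nilotinib mean 0.0339 ± 0.0296 CPM (SD over 3 libraries). Hemin DMSO exceeded hemin nilotinib 487-fold in depth-scaled counts (95% interval 190 to 1790), with a fitted log2 fold change of −8.80 (SE 0.43).

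BTN1A1, the butyrophilin gene, had 8, 3 and 9 counts in mock DMSO, 0, 1 and 0 in mock nilotinib, 130, 211 and 275 in hemin DMSO, and 0, 2 and 4 in hemin nilotinib. Both mock groups were low, at 9 counts or fewer. The hemin DMSO mean was 5.90 ± 1.66 CPM and the hemin nilotinib mean 0.0495 ± 0.0470 CPM (SD over 3 libraries). The ratio of hemin DMSO to hemin nilotinib was 113 (95% interval 51.7 to 310), and the fitted log2 fold change was −6.74 (SE 0.55).

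CETP, the lipid transfer gene, had 2, 3 and 2 counts in mock DMSO, 1, 2 and 1 in mock nilotinib, 90, 225 and 279 in hemin DMSO, and 0, 4 and 2 in hemin nilotinib. All 9 libraries outside hemin DMSO held 4 counts or fewer. The hemin DMSO mean was 5.67 ± 2.52 CPM and the hemin nilotinib mean 0.0522 ± 0.0551 CPM (SD over 3 libraries). Hemin DMSO exceeded hemin nilotinib 109-fold (95% interval 49.8 to 299), with a fitted log2 fold change of −6.67 (SE 0.58).

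**Figure D1:**
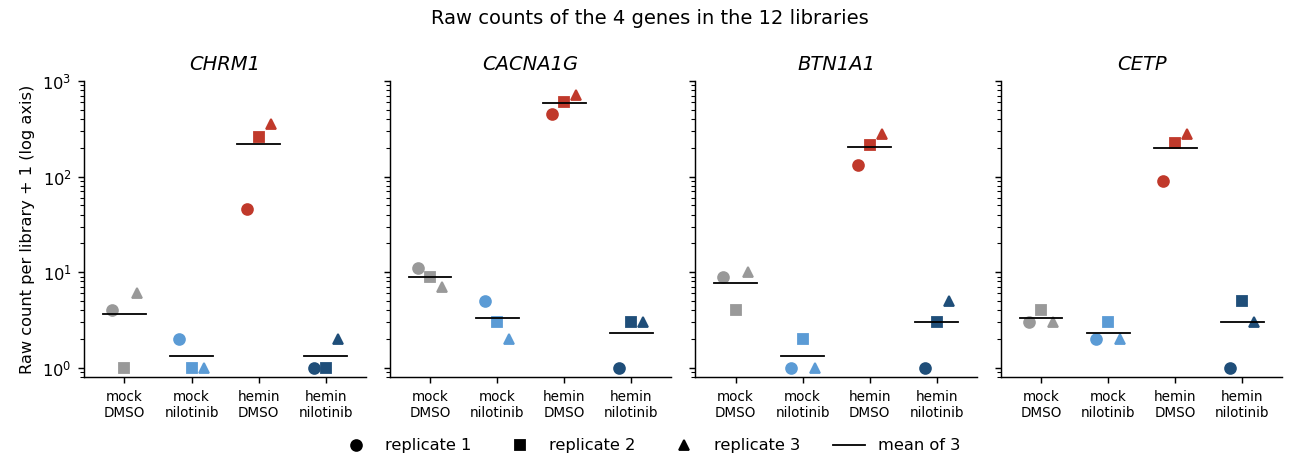
Raw count plus 1 (log axis) of CHRM1, CACNA1G, BTN1A1 and CETP in each of the 12 libraries, by group on the x axis, with a marker for each replicate and a line at the mean of 3. The hemin DMSO libraries lie between 45 and 714 counts and every other library at 10 or below.

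Read against the whole table, the separation of the hemin groups was common. In nilotinib with hemin 31.8% of the tested genes were called lower and 32.4% higher, and 32% had every hemin nilotinib library below every hemin DMSO library. The size of the change was less common, with CHRM1 and CACNA1G 3rd and 4th from the lowest fold change and BTN1A1 and CETP 55th and 58th. Nothing is read from these ranks, since the members were selected on this same contrast.

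Hemin without nilotinib compared hemin DMSO with mock DMSO and shared the hemin DMSO libraries with the contrast above. Depth-scaled counts were higher in hemin DMSO 119-fold for CHRM1 (95% interval 60.3 to 278), 106-fold for CACNA1G (71.3 to 167), 44.5-fold for BTN1A1 (28.6 to 73.4) and 123-fold for CETP (59.2 to 307). The mock DMSO libraries lay below the hemin DMSO libraries for all 4 genes, as they did for 29.8% of the tested genes. Of the tested genes, 25.7% were called higher and 27.8% lower with hemin alone. Fitted log2 fold changes were 6.80 for CHRM1, 6.70 for CACNA1G, 5.45 for BTN1A1 and 6.82 for CETP. BTN1A1 had the smallest of these folds and the largest mock DMSO FPKM of the 4 genes, 0.0441 ± 0.0177 (SD, n = 3), against 0.0139 to 0.0165 for the others.

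Hemin with nilotinib compared hemin nilotinib with mock nilotinib, and the libraries of these groups overlapped for all 4 genes. CHRM1 had 1 read in each group and no fold is given. The ratio was 1.84 for CACNA1G, with mock nilotinib higher (95% interval 0.468 to 8.57), and 1.43 for CETP (0.338 to 6.87) and 5.70 for BTN1A1 (0.692 to 262), both with hemin nilotinib higher. The sums were 1 to 7 reads per group, and the intervals cover counting error only. The members were chosen on the hemin nilotinib libraries, so neither a difference nor its absence is read from these values.

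Nilotinib without hemin is the single comparison whose libraries the choice of genes did not use, and it was tested by edgeR (quasi-likelihood F test, Benjamini-Hochberg adjusted over 20821 genes). BTN1A1 had 20 reads summed over mock DMSO and 1 over mock nilotinib, a ratio of 14.5 (95% interval 2.32 to 601). Its log2 fold change was −3.45 (SE 0.99, edgeR adjusted p = 0.0103). All 4 genes entered this test only through their hemin DMSO counts. With the same filter on the 6 mock libraries alone none of them has a value. With those 6 libraries and no filter, a setting added after the data were seen, the edgeR adjusted p of BTN1A1 was 0.021. Without mock nilotinib replicate 2, which held the 1 read, that group is at 0 and no fold is given. On the deposited FPKM with a pseudocount of 1 or 0.1, limma-trend did not call BTN1A1 (limma adjusted p = 0.711 and 0.0953). At 1 read in 3 libraries the size of the difference is not fixed by these data. CACNA1G did not pass the threshold, with 24 reads against 7, a ratio of 2.49 (95% interval 1.04 to 6.83) and an edgeR adjusted p of 0.0703. Without mock nilotinib replicate 1 it passed, at a log2 fold change of −1.81 and an edgeR adjusted p of 0.0486. CHRM1 had 8 reads against 1 (ratio 5.8, 95% interval 0.777 to 257) and an edgeR adjusted p of 0.309. CETP had 7 against 4 reads, for which no fold is given, and an edgeR adjusted p of 0.812. Over all tested genes 21.8% were called lower and 20.7% higher in this comparison.

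The hemin DMSO replicates differed by gene. By deposited FPKM, CHRM1 was at 0.429, 2.60 and 2.76 in replicates 1, 2 and 3, while CACNA1G was at 1.44, 2.01 and 1.86. BTN1A1 was at 1.39, 2.36 and 2.40 and CETP at 0.805, 2.11 and 2.03. Replicate 1 was the lowest for every gene and replicates 2 and 3 were close to each other. Group means were 1.93 ± 1.30 FPKM for CHRM1, 1.77 ± 0.30 for CACNA1G, 2.05 ± 0.57 for BTN1A1 and 1.65 ± 0.73 for CETP (SD, n = 3 each). No neighbours in that order differed beyond their spread, so the 4 genes had no distinguishable order of FPKM level.

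In CPM, replicate 1 was at 15.9% of the mean of replicates 2 and 3 for CHRM1, 38.7% for CETP, 58.1% for BTN1A1 and 74.1% for CACNA1G. Over all tested genes the median of this percentage was 98.8. Over the 40 tested genes with at most 30 counts summed in mock DMSO and at least 450 summed in hemin DMSO, the median was 74.3. The coefficient of variation over the 3 libraries was 67.7% for CHRM1, 44.5% for CETP, 28.2% for BTN1A1 and 16.7% for CACNA1G. CACNA1G thus lay close to the median of those 40 genes, which include the 4 genes themselves, and CHRM1 far below it. Without hemin DMSO replicate 1 the log2 fold change in nilotinib with hemin was −9.52 for CHRM1, −8.94 for CACNA1G, −6.96 for BTN1A1 and −7.0 for CETP.

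**Figure D2:**
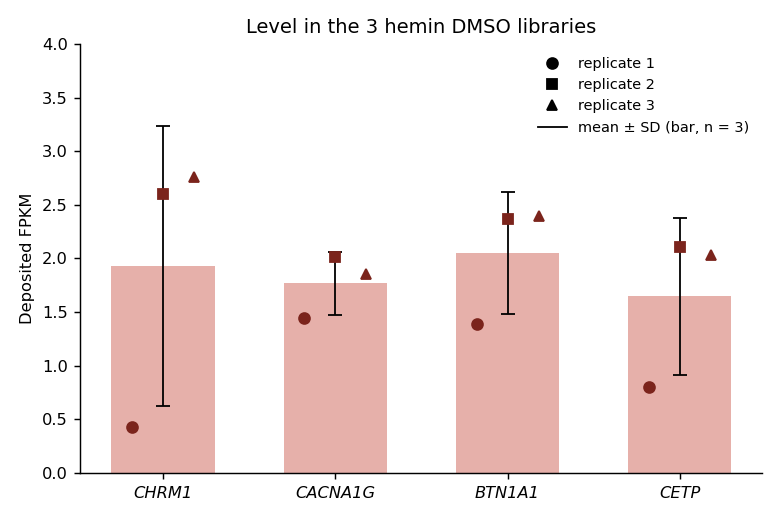
Deposited FPKM (y axis) of the 4 genes in the 3 hemin DMSO libraries, with a marker per replicate and a bar at the mean with its SD (n = 3). Replicate 1 is lowest for each gene, from 0.429 for CHRM1 to 1.44 for CACNA1G, and the means lie between 1.65 and 2.05.

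Over the 12 libraries the 4 genes correlated with each other on the log2 CPM scale (prior count 2) at Pearson r of 0.965 to 0.979. These values are a description, because the libraries form 4 groups and the members were chosen for this pattern. Among 10932 protein-coding genes with a mean of at least 100 counts, those most like CHRM1 were EFNA3 (r = 0.99, n = 12), AKAP17A (0.985) and ING1 (0.984). The genes most like CACNA1G were HBEGF (0.991), CDKN1A (0.99) and RAB2A (0.989). SCNM1 (0.994), ATG101 (0.992) and PPP1R18 (0.992) were most like BTN1A1, and RAB1A (0.989), TAX1BP1 (0.988) and PASD1 (0.985) were most like CETP.

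These companions also had their highest counts in hemin DMSO but were expressed in all 4 groups. EFNA3, an ephrin ligand, had 120, 79 and 120 counts in mock DMSO, 467, 936 and 1076 in hemin DMSO and 38, 50 and 74 in hemin nilotinib. EFNA3 was also lowest in hemin DMSO replicate 1. HBEGF, an EGF receptor ligand, had 82, 68 and 64 counts in mock DMSO, 667, 968 and 818 in hemin DMSO and 9, 17 and 25 in hemin nilotinib. CDKN1A, the cell cycle inhibitor p21, had 1825, 1157 and 1186 in mock DMSO, 10865, 11443 and 14615 in hemin DMSO and 475, 673 and 921 in hemin nilotinib. Each was lower in all hemin nilotinib libraries than in all mock DMSO libraries.

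How many genes were confined to hemin DMSO in the way the 4 genes were was then counted, using the members' own extremes as bounds. With at most 10 counts in each of the 9 other libraries and at least 45 in each library of the group, 42 of 58735 genes qualified in hemin DMSO, 36 of them protein-coding. The same bounds gave 3 genes in mock DMSO, 0 in mock nilotinib and 0 in hemin nilotinib. Since the bounds were set after the values were seen, these counts carry no test. Within those 42 genes, CACNA1G had the most hemin DMSO reads. Others, named after their values were seen, were COL2A1, a cartilage collagen, with 168, 453 and 445 counts, and SLC17A8, a vesicular glutamate transporter, with 183, 297 and 318.

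The genomic surroundings of each member were examined next, with every gene overlapping it and the nearest tested genes on either side. AP000438.1, annotated antisense within CHRM1, had 17, 262 and 313 counts in the hemin DMSO replicates and 0 in all 9 other libraries. Against a floor of 3 counts per library, its hemin DMSO level was at least 95.1-fold higher than that of mock DMSO. Over hemin nilotinib it was at least 72.5-fold higher. The counts of CHRM1 and AP000438.1 had the same order over the hemin DMSO replicates, and without strand their reads cannot be told apart where they overlap. The 3 antisense genes within CACNA1G, CACNA1G-AS1, AC021491.3 and AC004590.1, held at most 3 counts in any library.

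Several neighbours were far more abundant than the members and moved with them. HERPUD1, an endoplasmic reticulum stress gene that ends 16986 bases before CETP on the same strand, had 4194, 4022 and 4559 counts in mock DMSO, 20387, 17907 and 24093 in hemin DMSO and 584, 2724 and 4917 in hemin nilotinib. With nilotinib under hemin HERPUD1 fell by 3.13 on the log2 scale (SE 0.42, edgeR adjusted p = 8.76e-06). Hemin without nilotinib raised it by 2.80 (SE 0.42, edgeR adjusted p = 3.89e-05). HERPUD1 thus followed the order of CETP across the hemin groups, with a wide spread among the hemin nilotinib libraries, and its part in the CETP counts was not tested.

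SLC3A2, the heavy chain of amino acid transporters, ends 19803 bases from CHRM1 on the opposite strand and had 53653, 48170 and 61259 counts in hemin DMSO against 8488, 17455 and 25385 in hemin nilotinib. Its log2 fold change was −1.85 in nilotinib with hemin (SE 0.23, edgeR adjusted p = 3.6e-06) and 1.91 in hemin without nilotinib (SE 0.23). SNHG1, a noncoding RNA gene 52764 bases from CHRM1, was also lower with nilotinib under hemin, at a log2 fold change of −1.22 (SE 0.17, edgeR adjusted p = 1.47e-05). On the far side of CHRM1 the nearest genes within 100 kb, SLC22A6, AP000438.2 and SLC22A8, had too few reads to be tested. Their highest counts were 8, 9 and 31, all in hemin DMSO. The nearest tested genes on that side, LGALS12, a galectin gene, and RARRES3, a retinoid-responsive gene, lie 584276 and 615001 bases away on the opposite strand. LGALS12 had 68, 101 and 57 counts in hemin DMSO and 12, 44 and 50 in hemin nilotinib, a log2 fold change of −1.29 (SE 0.43, edgeR adjusted p = 0.0154), which did not pass without hemin DMSO replicate 2 (edgeR adjusted p = 0.0956). RARRES3 went the other way from CHRM1, with 33, 32 and 25 counts in hemin DMSO and 285, 371 and 447 in hemin nilotinib, a log2 fold change of 3.44 (SE 0.26, edgeR adjusted p = 1.69e-08). The part of these neighbours in the counts of CHRM1 was not tested.

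Near BTN1A1, its relative BTN2A1 lies 24599 bases upstream on the same strand and had 1057, 886 and 1383 counts in hemin DMSO and 440, 434 and 832 in hemin nilotinib. For BTN2A1 nilotinib gave log2 fold changes of −1.12 with hemin (SE 0.18) and −0.97 without it (SE 0.17), with edgeR adjusted p of 3.8e-05 and 0.000312. With hemin alone its log2 fold change was 0.15 (edgeR adjusted p = 0.495), so the rise that BTN1A1 had there was not seen in it. A pseudogene between them, AL121936.2, had 15, 8 and 8 counts in hemin DMSO and at most 1 count elsewhere. Downstream, the noncoding gene HCG11 went the other way, with 1.06 in nilotinib with hemin (SE 0.16) and −1.44 in hemin without nilotinib (SE 0.16).

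The neighbours of CACNA1G on the same strand gave another order. SPATA20, 5215 bases upstream, had 73, 132 and 132 counts in hemin DMSO and 88, 165 and 154 in hemin nilotinib, a log2 fold change of 0.12 (edgeR adjusted p = 0.694). ABCC3, an organic anion transporter 7302 bases downstream, had 30, 41 and 65 counts in hemin DMSO and 47, 133 and 193 in hemin nilotinib, a log2 fold change of 1.29 (SE 0.42, edgeR adjusted p = 0.0136). That call was lost without hemin DMSO replicate 1 or without hemin nilotinib replicate 3 (edgeR adjusted p = 0.0577 and 0.067). MYCBPAP, 29566 bases upstream, was low throughout and had its highest count, 46, in hemin DMSO.

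Beyond CETP, 5639 bases downstream on the same strand, NLRC5, a regulator of MHC class I genes, responded to nilotinib in the opposite direction to CETP. NLRC5 had 2, 4 and 7 counts in mock DMSO, 320, 438 and 374 in mock nilotinib, 2, 24 and 16 in hemin DMSO and 376, 376 and 299 in hemin nilotinib. It rose with nilotinib under hemin by 4.51 on the log2 scale (SE 0.46, edgeR adjusted p = 4.05e-07), and by 5.24 without hemin DMSO replicate 2. CETP therefore lay between a gene that fell and a gene that rose with nilotinib.

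**Figure D3:**
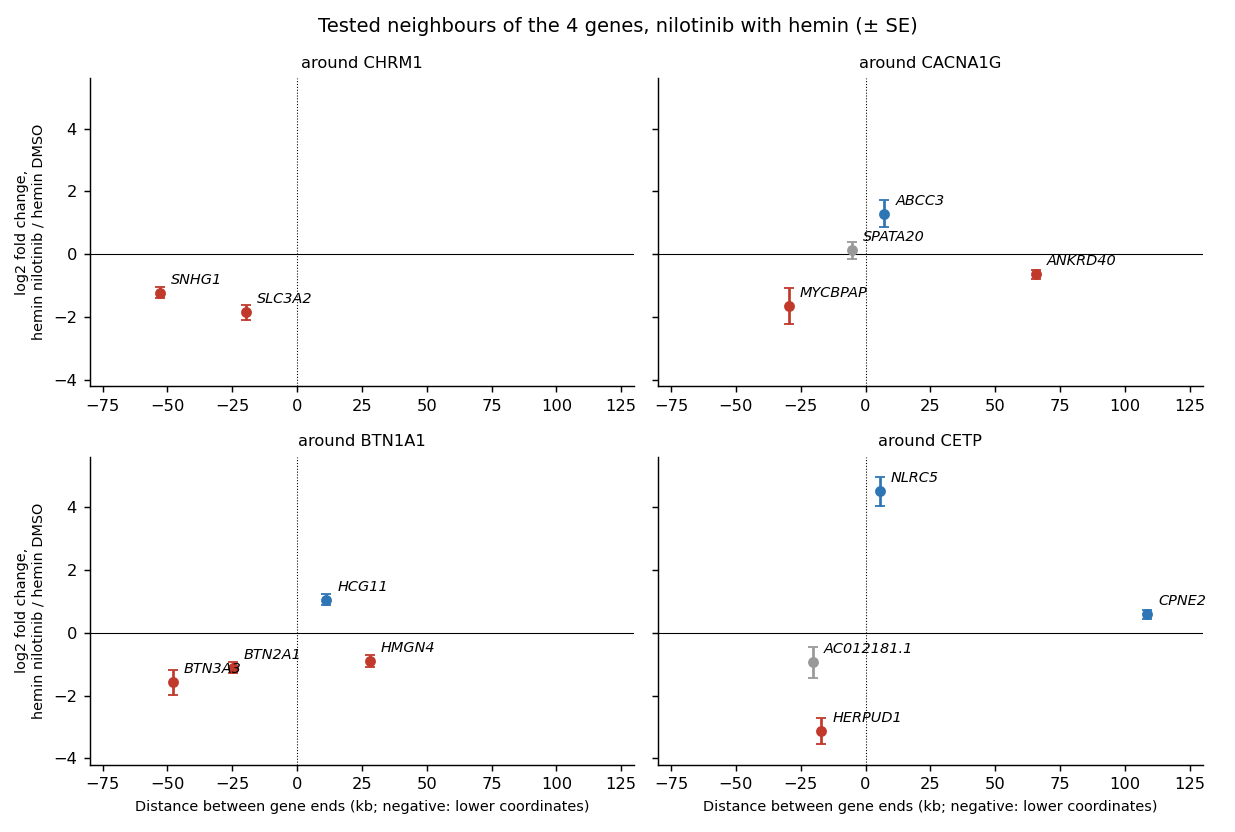
Log2 fold change of hemin nilotinib over hemin DMSO (y axis, ± SE from edgeR) of the tested neighbours within 110 kb of each of the 4 genes, by distance between gene ends in kb (x axis). Red points were called lower, blue points higher and grey points neither at the 0.05 threshold, and HERPUD1 at −3.13 and NLRC5 at 4.51 flank CETP.

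The other genes of each member's pathway were taken from fixed lists, leaving the members out. In nilotinib with hemin 31.8% of all tested genes were called lower and 32.4% higher, and with hemin alone 27.8% lower and 25.7% higher. These shares stand beside the counts below, and no list was tested as a set. Of the 4 other muscarinic receptors, CHRM4 and CHRM5 had enough reads to be tested, both fell in nilotinib with hemin and both rose in hemin without nilotinib. CHRM4 had 49, 36 and 27 counts in mock DMSO, 86, 49 and 102 in hemin DMSO and 17, 9 and 8 in hemin nilotinib, a log2 fold change of −2.89 in nilotinib with hemin (SE 0.42, edgeR adjusted p = 1.83e-05). CHRM5 had 47, 15 and 39 counts in hemin DMSO and 2, 10 and 20 in hemin nilotinib, a log2 fold change of −1.82 (SE 0.65, edgeR adjusted p = 0.0226). The call of CHRM5 was lost without hemin DMSO replicate 1 or 3 or hemin nilotinib replicate 1 or 2 (edgeR adjusted p = 0.103, 0.0503, 0.0628 and 0.0521), and its rise with hemin alone without hemin DMSO replicate 1 (edgeR adjusted p = 0.0624). CHRM2 and CHRM3 held at most 6 counts in any library.

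Of the genes that make, carry or break down acetylcholine, only ACHE, the acetylcholinesterase of synapses and red cells, had enough reads to be tested. It rose with nilotinib without hemin by 2.96 (SE 0.23) and with hemin alone by 3.36 (SE 0.23). In nilotinib with hemin its log2 fold change was −0.51 (SE 0.21, edgeR adjusted p = 0.0412), a call lost with library totals as the scale (edgeR adjusted p = 0.175) and with the 6 hemin libraries unfiltered (edgeR adjusted p = 0.0782). The ACHE call was also lost without replicate 2 or 3 of hemin DMSO or of hemin nilotinib (edgeR adjusted p from 0.0724 to 0.261). CHAT and SLC5A7, needed to make acetylcholine and take up choline, were listed at 0 in all 12 libraries.

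Downstream of Gq-coupled receptors, 6 of 10 tested genes fell when nilotinib preceded hemin, against 31.8% of all tested genes. Another 1 rose and 3 did not pass, and the list's median was −0.57 on the log2 scale against 0.02 over all tested genes. GNA15, a Gq family subunit of blood cells, had 34, 39 and 33 counts in hemin DMSO and 1, 2 and 2 in hemin nilotinib, a log2 fold change of −4.47 (SE 0.51, edgeR adjusted p = 1.3e-06). PLCB2, a phospholipase C beta of blood cells, fell by 2.64 (SE 0.41), and ITPR2, an inositol trisphosphate receptor, fell by 1.95 (SE 0.27). Without hemin nilotinib also lowered GNA15, PLCB2 and ITPR2, at log2 fold changes of −2.74, −3.05 and −2.28. With hemin alone 4 of the 10 rose, 3 fell and 3 did not pass.

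The pores of voltage-gated calcium channels other than CACNA1G were mostly low and did not share its pattern. In nilotinib with hemin 1 of 6 tested pores rose, 1 fell and 4 did not pass, and with hemin alone 1 rose, 2 fell and 3 did not pass. The pore that fell with nilotinib, CACNA1A, had 4, 18 and 22 counts in hemin DMSO and 4, 3 and 7 in hemin nilotinib. Its call was lost without hemin DMSO replicate 2 or 3 or hemin nilotinib replicate 2 (edgeR adjusted p = 0.0655, 0.0707 and 0.0609). CACNA1F, an L-type pore of retina, had 23, 61 and 47 counts in hemin DMSO and 188, 379 and 797 in hemin nilotinib, a log2 fold change of 3.17 (SE 0.46). The T-type relatives CACNA1H and CACNA1I had at most 13 and 99 counts in hemin DMSO and did not pass in nilotinib with hemin (edgeR adjusted p = 0.357 and 0.18). With hemin alone both T-type relatives fell, at log2 fold changes of −1.44 for CACNA1H and −1.30 for CACNA1I.

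Auxiliary subunits of calcium channels moved in both directions, with 4 of 6 tested genes lower and 2 higher in nilotinib with hemin. The shares over all tested genes were 31.8% lower and 32.4% higher. CACNB4, a beta subunit of neurons, came closest to the pattern of CACNA1G, with 1, 1 and 2 counts in mock DMSO, 4, 0 and 1 in mock nilotinib, 52, 40 and 51 in hemin DMSO and 8, 2 and 3 in hemin nilotinib. Its log2 fold change was −3.55 in nilotinib with hemin (SE 0.58, edgeR adjusted p = 5.45e-05) and 5.54 in hemin without nilotinib (SE 0.68), and leaving out hemin nilotinib replicate 1 moved the first to −4.38. CACNB1, the beta subunit of muscle channels, fell by 2.38 on the log2 scale with nilotinib under hemin (SE 0.25), and CACNA2D4 rose by 2.35 (SE 0.47).

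Butyrophilin relatives moved in both directions. Of 10 tested, 4 rose, against 32.4% of all tested genes, 2 fell and 4 did not pass in nilotinib with hemin, and with hemin alone 4 fell and 6 did not pass. BTNL10 had 0, 7 and 5 counts in hemin DMSO and 474, 637 and 669 in hemin nilotinib, a log2 fold change of 7.03 (SE 0.41), or 7.76 without hemin DMSO replicate 2. ERMAP, an erythroid membrane protein that carries the Scianna blood group, had 856, 863 and 1547 counts in hemin DMSO and 16090, 16629 and 17748 in hemin nilotinib, a log2 fold change of 3.84 (SE 0.21). BTN3A2 rose by 2.05 (SE 0.21). Proteins that meet butyrophilin at the milk fat globule were mixed. Of 5 tested, CD36 rose by 3.28 (SE 0.41), PLIN2, a lipid droplet coat protein, fell by 1.13 (SE 0.12), MFGE8 fell by 0.52 (SE 0.13), and 2 did not pass. XDH, the partner of butyrophilin in milk fat secretion, held at most 2 counts.

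Of 8 tested genes of plasma lipid transfer and HDL remodelling other than CETP, 5 fell when nilotinib preceded hemin. Over all tested genes 31.8% were called lower. Another 1 rose and 2 did not pass, and the list's median was −1.62 on the log2 scale. APOA1, the main protein of HDL, was the one with a pattern near that of CETP, at 0, 2 and 3 counts in mock DMSO, 1, 0 and 0 in mock nilotinib, 19, 21 and 29 in hemin DMSO and 0, 2 and 9 in hemin nilotinib. Its log2 fold change was −2.78 in nilotinib with hemin (SE 0.73, edgeR adjusted p = 0.00323) and 4.17 in hemin without nilotinib (SE 0.81). Without hemin nilotinib replicate 3, the library with the most hepatocyte marker reads, the first was −4.40, and without mock DMSO replicate 1 the second was 3.50. PLTP, the phospholipid transfer protein and nearest functional relative of CETP, had nilotinib log2 fold changes of −2.54 with hemin and −2.61 without (SE 0.19 for both), while hemin alone gave −0.11 (edgeR adjusted p = 0.607). LIPC, hepatic lipase, fell by 1.73 with nilotinib under hemin (SE 0.25).

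The targets of liver X receptors were split, with 2 of 6 tested higher, 1 lower and 3 not passing in nilotinib with hemin. SREBF1, a lipogenic transcription factor, rose by 1.75 (SE 0.16), LPCAT3 rose by 1.09 (SE 0.18) and MYLIP fell by 0.75 (SE 0.16). With hemin alone SREBF1 fell by 1.82 (SE 0.16) while MYLIP rose by 1.0 (SE 0.16). CETP moved against SREBF1 in both comparisons.

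**Figure D4:**
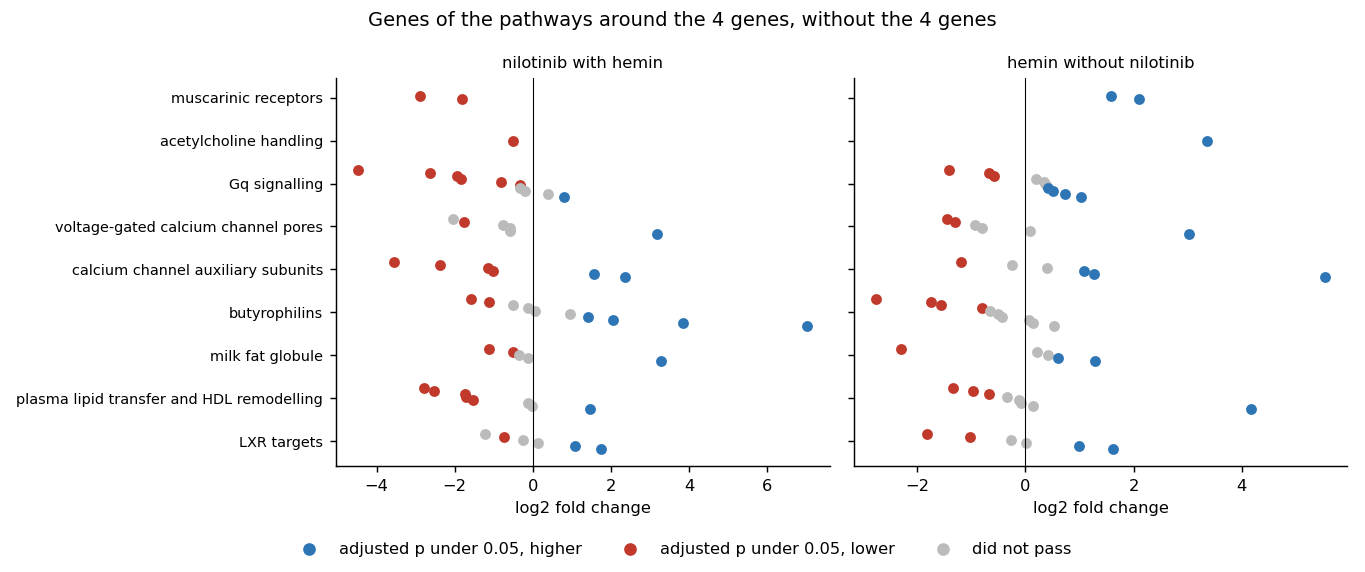
Log2 fold change (x axis) of each tested gene in the 9 pathway lists (y axis), without the 4 genes, for nilotinib with hemin (left) and hemin without nilotinib (right). Blue points were called higher, red points lower and grey points neither at the 0.05 threshold. In the left panel the points run from −4.47 for GNA15 to 7.03 for BTNL10.

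Markers of the tissues in which the 4 genes are usually found were checked as lists. Of 10 neuron markers NEFL and STMN2 were at 0 in all libraries, 3 were tested, and 2 of these fell in nilotinib with hemin. TUBB3, a neuronal tubulin, had 30, 8 and 18 counts in mock DMSO, 577, 1012 and 1252 in hemin DMSO and 11, 64 and 98 in hemin nilotinib. RBFOX3, the NeuN antigen, had 34, 77 and 180 counts in hemin DMSO and 3, 7 and 34 in hemin nilotinib. SYP, a synaptic vesicle protein and the third tested marker, did not pass (log2 fold change −0.29, SE 0.27, edgeR adjusted p = 0.359). The summed level of the list was 25.8 to 43.8 CPM in hemin DMSO, 2.46 to 3.89 in mock DMSO, 5.0 to 8.37 in mock nilotinib and 5.26 to 9.0 in hemin nilotinib. TUBB3 alone supplied 27.2 ± 8.29 CPM (SD, n = 3) of the hemin DMSO sum. The sum was highest in the group where CHRM1 and CACNA1G were found, and its part in their levels was not tested.

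Of 8 mammary secretory markers CSN1S1, CSN2, CSN3 and PIP were at 0 in all 12 libraries, and LALBA held at most 4 counts. LTF, the lactoferrin gene, had 5, 4 and 1 counts in hemin DMSO and 141, 72 and 53 in hemin nilotinib. Its log2 fold change in nilotinib with hemin was 4.58 (SE 0.67, edgeR adjusted p = 1.97e-05), the opposite direction to BTN1A1. KRT18, the other tested marker, fell by 0.495 (SE 0.198, edgeR adjusted p = 0.038). The summed mammary list ran from 98.3 to 208 CPM over all libraries, nearly all of it KRT18, a keratin of many epithelia. Hepatocyte markers were low apart from TF, the transferrin gene. TF was at 6.7 CPM in hemin DMSO and 42.2 in hemin nilotinib, a log2 fold change of 2.66 (SE 0.225, edgeR adjusted p = 5.53e-08). With TF the list summed to 8.43 to 9.57 CPM in hemin DMSO and 26.9 to 53.6 in hemin nilotinib. In that comparison 1 of 3 tested hepatocyte markers rose, 1 fell and 1 did not pass. The other 9 summed to 9 to 28 counts in mock DMSO, 17 to 21 in mock nilotinib, 76 to 93 in hemin DMSO, and 6, 11 and 180 in hemin nilotinib. In replicate 3 of hemin nilotinib, ALB had 51 and SERPINA1 48 counts, while CETP had 2. Without TF the highest sum was thus in a library with 2 CETP counts. The next highest such sums were in the hemin DMSO libraries, where CETP was found. The part of this list in the CETP level was not tested.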

How the data were processed

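K562 libraries were sequenced on an Illumina NovaSeq platform as 150 bp paired-end reads. The authors deposited a table of raw counts per gene and a table of FPKM, with gene positions that match GENCODE 29 for all 58735 genes. The submitters' processing notes name GRCh38.p12 and DESeq2. The aligner, counter and strand setting are not given in the sources used here. FPKM as the authors deposited them were used for levels between genes and for an alternative test.

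Counts were fitted with edgeR 4.0.16 (R 4.3.3) with TMM scaling, filterByExpr (minimum count 10, total 15), 1 mean per group over 12 libraries, and the quasi-likelihood test with Benjamini-Hochberg adjustment over 20821 genes at 0.05. Intervals of count ratios are exact 95% conditional binomial intervals, which cover counting error and not the spread among replicates. DESeq2 1.42.0, limma 3.58.1, other scales, no filter, the replicate block and each library left out were alternatives, and an unfiltered fit on the 6 libraries of a comparison was added after the data were seen. The fit was tested on simulated data. Replicates are called biological by the labels.

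The 4 genes, the gene lists and the rule for named genes were chosen with earlier results of these data known. Named genes were the members, up to 3 called genes per list with the largest change in nilotinib with hemin, genes overlapping a member, the 2 nearest tested genes on each side, and the 3 protein-coding genes most correlated with each member. List genes that did not pass are also named where a count turns on them.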

Additional observations from a re-analysis of the deposited data

Results flagged for a closer look

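For 14 of 39 named genes other than the members, the effect of nilotinib differed with and without hemin by an interaction term in the edgeR quasi-likelihood fit with Benjamini-Hochberg adjustment over all tested genes. The same term was called for 30.1% of the 20821 tested genes, and the list genes were named for their change with hemin, which is 1 arm of it. The interaction is the log2 fold change with hemin minus that without. The neighbours of the members were HERPUD1 (−1.57, SE 0.56, adjusted p = 0.0436), SLC3A2 (−1.18, SE 0.32), SNHG1 (−0.95, SE 0.24), NLRC5 (−2.36, SE 0.74) and HCG11 (1.45, SE 0.23). The receptor and channel genes were CHRM4 (−1.90, SE 0.59), ACHE (−3.47, SE 0.30) and CACNB4 (−4.25, SE 1.23). The butyrophilins were BTNL10 (2.18, SE 0.55), ERMAP (1.86, SE 0.26) and BTN3A2 (0.976, SE 0.29). The lipid genes were PLIN2 (−1.13, SE 0.17), MYLIP (−1.01, SE 0.22) and SREBF1 (2.05, SE 0.22). HERPUD1 had the adjusted p nearest to the threshold of 0.05, and ACHE had the smallest, 3.14e-06.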

How the results depend on the processing

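For nilotinib without hemin the log2 fold change of BTN1A1 was −0.0573 on log2(FPKM + 1) and −0.474 on log2(FPKM + 0.1) and was not called by limma-trend there (adjusted p over all alternatives 0.00139 to 0.711). The other settings keep the gene through its hemin DMSO counts or apply no filter, and the 6 mock libraries with the filter give no member a value. With those 6 libraries unfiltered, added after the data were seen, BTN1A1 was at −3.47 (edgeR adjusted p = 0.021), CACNA1G at −1.31 (0.244) and CHRM1 at −2.20 (0.335). With single libraries left out CACNA1G ranged from −1.81 to −0.988. In nilotinib with hemin the changes of CHRM1, CACNA1G, BTN1A1 and CETP were −1.42, −1.46, −1.57 and −1.34 on log2(FPKM + 1) and −3.97, −4.16, −4.18 and −3.83 on log2(FPKM + 0.1), where the pseudocount sets the size. Leaving out single libraries moved them over −10.9 to −8.61, −9.21 to −8.3, −7.55 to −6.22 and −7.63 to −6.15. The −10.9 of CHRM1 leaves hemin nilotinib at 0 reads, so the fit's handling of zeros sets it and it is no bound. In hemin without nilotinib they were 1.4, 1.44, 1.53 and 1.34, and 3.8, 3.99, 3.87 and 3.83, on the same FPKM scales, and 6.32 to 7.5, 6.46 to 6.84, 5.18 to 5.67 and 6.58 to 7.16 without single libraries.

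With the replicate block the log2 fold change of BTN1A1 in nilotinib without hemin was −3.46 (edgeR adjusted p = 0.00891) and no member's call changed. Same-numbered libraries deviated together at 0.0869 to 0.0989 in that comparison, so the numbers were not taken as pairs. In nilotinib with hemin they did so at −0.00712, 0.0818 and 0.235 for replicates 1, 2 and 3. In hemin with nilotinib the values were 0.199 to 0.263. No gene was tested in that last comparison itself, but its libraries enter the interaction above. Library totals as the scale moved the median of all tested genes by 0.18 in nilotinib with hemin and by −0.24 in hemin without nilotinib, where 33.9% of calls were then higher in place of 48%. Among the called changes of list genes and neighbours no direction reversed, and the most correlated genes were not checked. The CETP change in hemin with nilotinib went from 0.474 to −0.508 without hemin nilotinib replicate 2. Besides the losses given above, some calls were lost without single libraries. In nilotinib without hemin these were CACNA1A, HMGN4, LPCAT3 and SLC3A2, and in nilotinib with hemin MYCBPAP. With hemin alone they were AC012181.1, CACNA2D4, CPNE2, GNA15, NLRC5 and SNHG1. The depth limits comparisons outside hemin DMSO, where the 4 genes held 10 counts or fewer.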
